A study of Arabidopsis thaliana with 6 samples.

Results

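Calmodulin-like (CML) genes and mitogen-activated protein kinase (MPK) genes were followed in whole seedlings of Arabidopsis thaliana that were wild type or overexpressed a rice subunit of topoisomerase VI. A gene was taken when the array annotation gave its probe set exactly 1 gene and the symbol was 1 of 16 kinase or calcium-signalling family names followed by a number, with or without a leading AT. Of the 13350 genes that a probe set names alone, 9 met this rule. They were 7 CML genes (CML23, CML30, CML37, CML38, CML41, CML42 and CML43) and 2 MPK genes (ATMPK8 and ATMPK13). Each had a single probe set, and all 9 had a locus in the TAIR10.1 gene table. The other 14 families, which include the CPK, CIPK, MKK, CRK, WAK and RLP names, had 0 genes under this rule, and 11933 of the 13513 probe sets with 1 gene carry a locus number and no family name in that annotation. The values below therefore describe calcium sensors of the CML type and a pair of MAP kinases, and hold no receptor kinase, calcium-dependent kinase or calmodulin gene.

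Calcium entering the cytosol of a plant cell is read by proteins with EF-hand loops, among them calmodulin, the CML proteins, the calcineurin B-like proteins and the calcium-dependent protein kinases. CML proteins have no kinase or other catalytic domain and act by binding partner proteins. MAP kinases stand at the end of a chain of kinases that runs from MAPKKK through MKK to MPK, and both routes carry signals of wounding, touch, pathogens and growth.

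Seedlings were 10 days old and were grown in continuous light on agar-solidified MS medium with 2% sucrose. The 3 groups, each with 2 biological replicates on an array of their own (6 in all), were wild type, an overexpressor of OsTOP6A3 cDNA (titled OEA3L5) and an overexpressor of OsTOP6B cDNA (titled OETOP6B). The ecotype label Columbia is given for 5 arrays and is missing for wild-type replicate 1. All arrays of an overexpressor carry the same name, the promoter driving the transgene is not given in the sources used here, and no group carries an empty vector, so a subunit and the plants that carry it cannot be told apart. RNA came from whole seedlings, in which fewer cells of a type and less RNA per cell cannot be told apart.

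Median deposited intensities ran from 66.2 to 103.5 over the arrays, and values below are after quantile normalization, as log2(intensity + 16), where an intensity of 0 reads 4. Replicates correlated across probe sets with Pearson's r of 0.988 in wild type, 0.991 with OsTOP6A3 and 0.983 with OsTOP6B. The first OsTOP6B array stood closer to both OsTOP6A3 arrays (r = 0.989) than to the second OsTOP6B array. The 7 green-shoot markers measured had deposited intensities of 1440.9 to 10082.3, and the 3 root markers 38.5 to 8538.8, so shoot and root transcripts were both present.

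None of the calmodulin-like and MAP kinase genes taken by this rule and tested passed in any comparison. With limma's moderated test, 0 of the 7 genes tested had an adjusted p under 0.05 for OsTOP6A3 against wild type, where 9.68% of all 17059 tested probe sets passed. For OsTOP6B against wild type the count was also 0 of 7, where 14.9% of probe sets passed, and between the overexpressors it was 0 of 7, where 0% passed. At an unadjusted p under 0.05 the count was 1 of 7 with OsTOP6A3 (CML41), against 25.9% of all probe sets, 0 of 7 with OsTOP6B, against 31.4%, and 1 of 7 between the overexpressors (CML41), against 7.24%. A share over 7 genes is given as a description and nothing is read from it.

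CML37 and CML38 read near the floor on all arrays and were not tested. Their means over the 6 arrays lay below the filter, the 25th percentile of all probe sets at 4.97. CML38, a sensor known to be induced by wounding and low oxygen, had deposited intensities of 6.2 and 5.1 in wild type, 7.8 and 7.2 with OsTOP6A3, and 7.6 and 7.1 with OsTOP6B. On the normalized log2 scale these were 4.50 and 4.46, 4.53 and 4.50, and 4.48 and 4.60. The spread over all CML38 arrays was thus small, and the groups overlapped. CML37, known from defence against insects and from drought, had deposited intensities of 1.6 and 0.9 in wild type, 0.5 and 6.4 with OsTOP6A3, and 1.0 and 7.7 with OsTOP6B. Its normalized values were 4.14 and 4.09, 4.04 and 4.45, and 4.08 and 4.64, so that replicate 2 of each overexpressor read higher than its replicate 1. In a fit without the filter, CML38 differed from wild type by 0.03 ± 0.12 (SE) on the log2 scale with OsTOP6A3 and by 0.06 ± 0.12 with OsTOP6B, with limma adjusted p of 0.908 and 0.811. CML37 differed by 0.13 ± 0.23 and 0.25 ± 0.23, with adjusted p of 0.796 and 0.562. The pseudocount shrinks differences at this level, and a change of either transcript was not detectable at this signal.

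AT1G76640, the gene next to CML38, is listed as CML39 among the synonyms in the gene table, a name that the table also lists for CML37, but has no family symbol on the array, so it lies outside the rule. Its deposited intensities were 3.5 and 1.7 in wild type, 3.7 and 0.8 with OsTOP6A3, and 4.4 and 6.3 with OsTOP6B, and it too lay under the filter.

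**Figure D1:**
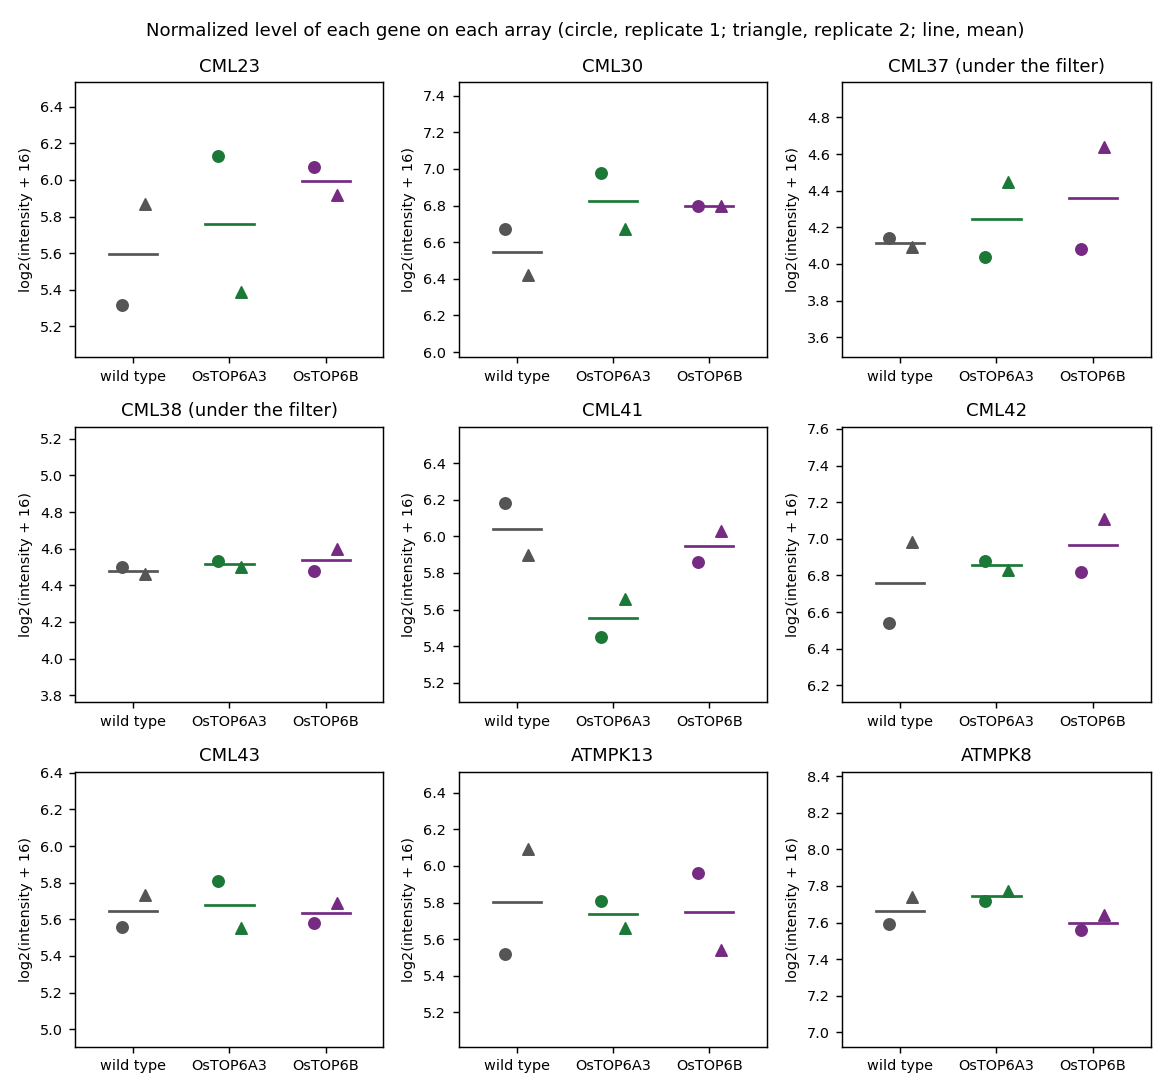
Normalized level of each of the 9 calmodulin-like and MAP kinase genes taken by the rule, as log2(intensity + 16), on each of the 6 arrays. The x axis groups the arrays as wild type, OsTOP6A3 and OsTOP6B overexpressors. Circles are replicate 1, triangles replicate 2 and lines the mean of 2 arrays; every panel spans the same height. CML41 with OsTOP6A3, at 5.45 and 5.66, lies below all other arrays. The widest gaps between replicates are those of CML23 with OsTOP6A3 (0.73) and ATMPK13 in wild type (0.57).

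CML41 gave the lowest adjusted p of the genes tested against wild type. It encodes a sensor found at plasmodesmata, the channels between plant cells, where it is known to act in closing them during immune responses. Its normalized log2 values were 6.18 and 5.90 in wild type, 5.45 and 5.66 with OsTOP6A3, and 5.86 and 6.03 with OsTOP6B. Both OsTOP6A3 arrays read below all wild-type and OsTOP6B arrays, and the OsTOP6B arrays overlapped wild type. The difference with OsTOP6A3 was -0.49 ± 0.15 (SE) on the log2 scale, or 1.40-fold lower, with a 95% interval of -0.85 to -0.13 that carries no correction for multiple testing. Its unadjusted p was 0.0134 and its limma adjusted p 0.0903, and so it did not pass. With OsTOP6B the difference from wild type was -0.10 ± 0.15 (adjusted p = 0.706). Between the overexpressors OsTOP6A3 was lower by -0.39 ± 0.15, with an unadjusted p of 0.0352 and an adjusted p of 0.677. As deposited, CML41 read 48.1 and 37.9 in wild type and 32.2 and 37.9 with OsTOP6A3, although the OsTOP6A3 arrays were the brighter ones by their medians. In the fit on that scale its difference with OsTOP6A3 was smaller, at -0.21 (limma adjusted p = 0.623). The median of all tested probe sets was 0.34 in that fit.

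CML30, a sensor known from mitochondria, read 6.67 and 6.42 in wild type, 6.98 and 6.67 with OsTOP6A3, and 6.80 and 6.80 with OsTOP6B. The OsTOP6B arrays both stood above wild type, whereas the lower OsTOP6A3 array and the higher wild-type array both read 6.67, 0.002 apart. Differences from wild type were 0.28 ± 0.15 with OsTOP6A3 and 0.25 ± 0.15 with OsTOP6B, and neither passed (limma adjusted p = 0.296 and 0.305). The 95% intervals ran from -0.08 to 0.64 and from -0.11 to 0.61.

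CML23, which is known to act with its close relative CML24 in nitric oxide and flowering-time regulation, read 5.32 and 5.87 in wild type, 6.13 and 5.39 with OsTOP6A3, and 6.07 and 5.92 with OsTOP6B. The OsTOP6A3 replicates differed by 0.73 on the log2 scale, the widest replicate gap among the 7 tested genes. The OsTOP6B arrays stood above both wild-type arrays, by a mean difference of 0.40 ± 0.26, which did not pass (limma adjusted p = 0.346). The difference with OsTOP6A3 was 0.16 ± 0.26 (adjusted p = 0.737), with a 95% interval of -0.45 to 0.78. In the gene table CML23 lies next to the calmodulin gene CAM4, which has no probe set of 1 gene here.

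CML42, known from the branching of leaf hairs and from insect defence, read 6.54 and 6.98 in wild type, 6.88 and 6.83 with OsTOP6A3, and 6.82 and 7.11 with OsTOP6B. CML43, a relative of CML42, read 5.56 and 5.73, 5.81 and 5.55, and 5.58 and 5.69. In both genes every group overlapped every other. CML42 differed from wild type by 0.09 ± 0.18 with OsTOP6A3 and 0.20 ± 0.18 with OsTOP6B (limma adjusted p = 0.782 and 0.489). For CML43 the differences were 0.04 ± 0.14 and -0.01 ± 0.14 (adjusted p = 0.899 and 0.986), with 95% intervals of -0.30 to 0.37 and -0.34 to 0.33.

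The 2 MAP kinase genes taken by the rule showed no difference that passed. ATMPK8 encodes a kinase that is known to bind calmodulin and to act in the wound response. It read 7.59 and 7.74 in wild type, 7.72 and 7.77 with OsTOP6A3, and 7.56 and 7.64 with OsTOP6B. The OsTOP6A3 arrays stood above the OsTOP6B arrays, by 0.14 ± 0.12 (limma adjusted p = 0.806), and both overexpressors overlapped wild type. Differences from wild type were 0.08 ± 0.12 and -0.06 ± 0.12 (adjusted p = 0.736 and 0.776). The 95% intervals of ATMPK8 against wild type, -0.21 to 0.37 with OsTOP6A3 and -0.35 to 0.23 with OsTOP6B, were the narrowest of the 7.

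ATMPK13, a kinase known to act downstream of MKK6 in lateral root formation, read 5.52 and 6.09 in wild type, 5.81 and 5.66 with OsTOP6A3, and 5.96 and 5.54 with OsTOP6B. The wild-type arrays spanned those of both overexpressors. Differences from wild type were -0.07 ± 0.22 and -0.05 ± 0.22 (limma adjusted p = 0.876 and 0.902), against a gap of 0.57 between the wild-type replicates. The interval with OsTOP6A3 ran from -0.58 to 0.44.

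**Figure D2:**
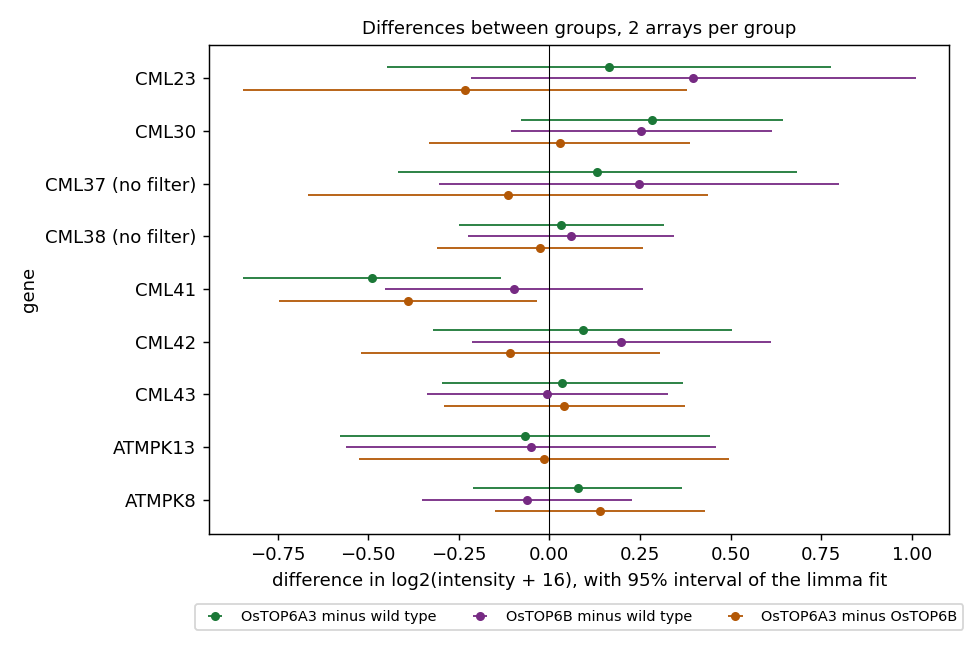
Difference in log2(intensity + 16) on the x axis for each gene and comparison, with 95% intervals of the limma fit, uncorrected for multiple testing. CML37 and CML38 come from the fit without the filter. CML41 with OsTOP6A3 (-0.49 against wild type and -0.39 against OsTOP6B) has the only intervals that leave out 0, and neither passed after adjustment.

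As a group, the 7 tested genes had a median difference from wild type of 0.08 on the log2 scale with OsTOP6A3 and -0.01 with OsTOP6B, where the medians of all tested probe sets were -0.02 and -0.02. The differences ran from -0.49 (CML41) to 0.28 (CML30) with OsTOP6A3 and from -0.10 (CML41) to 0.40 (CML23) with OsTOP6B. These genes were chosen by name, and 2 of the 9 were set aside for low values. The 2 comparisons share the wild-type arrays.

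Groups whose arrays did not overlap were found for 2 of 7 genes with OsTOP6A3 against wild type, where 61% of all tested probe sets did not overlap. Of these CML41 was lower, and CML30 was higher by no more than the 0.002 between its nearest arrays, so that 1 of 7 is left if that is taken as a tie; no tolerance was used for any probe set. With OsTOP6B the count was 2 of 7 (CML23 and CML30, both higher), where 57.3% did not overlap. Between the overexpressors it was 2 of 7 (ATMPK8 higher and CML41 lower with OsTOP6A3), where 38.3% did not overlap. The median gap between replicates of the 7 genes was 0.28 in wild type, 0.21 with OsTOP6A3 and 0.14 with OsTOP6B, beside 0.14, 0.12 and 0.19 for all tested probe sets.

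Leaving out single arrays moved 14 of the 21 differences of tested genes across 0 at least once, and 0 genes passed in any comparison under these settings. CML41 with OsTOP6A3 stayed below wild type, from -0.63 to -0.36 over the 6 fits, with limma adjusted p from 0.0856 to 0.418. CML30 stayed above wild type in both overexpressors, from 0.13 to 0.44 with OsTOP6A3 and from 0.13 to 0.38 with OsTOP6B, and CML23 stayed above wild type with OsTOP6B, from 0.13 to 0.67. CML23 with OsTOP6A3 ran from -0.20 to 0.52, and ATMPK13 from -0.36 to 0.22. ATMPK8 with OsTOP6A3 ran from 0.00 to 0.15.

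**Figure D3:**
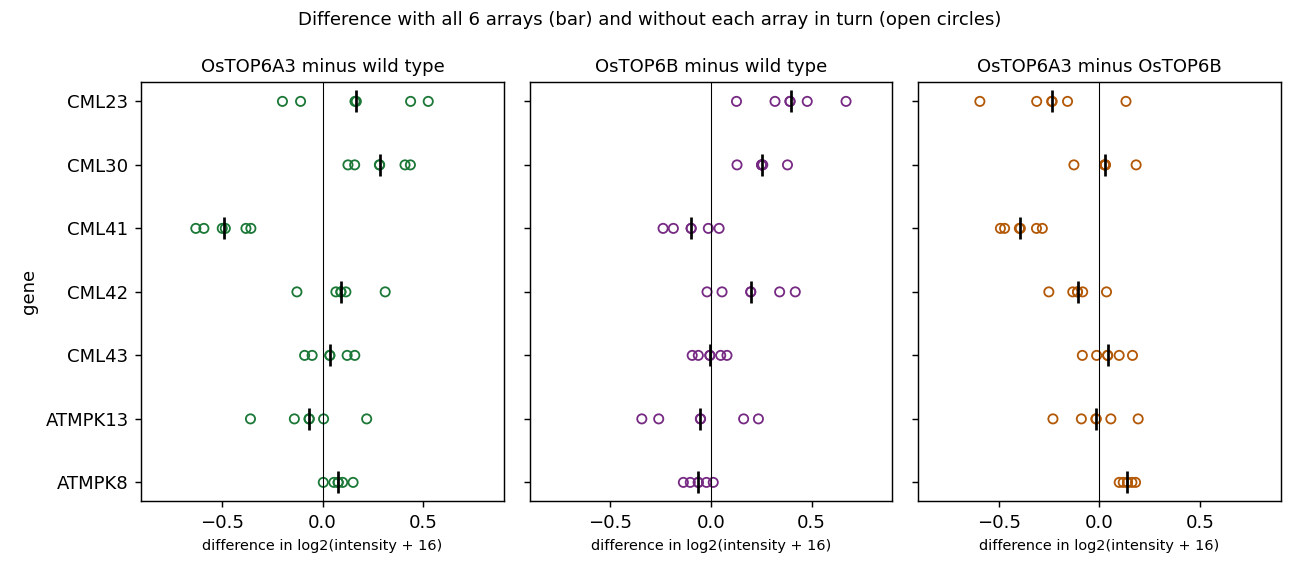
Difference in log2(intensity + 16) for the 7 tested genes in each comparison, with all 6 arrays (black bar) and without each array in turn (open circles). CML41 with OsTOP6A3 stays below 0, from -0.63 to -0.36 against wild type, while CML23 with OsTOP6A3 lies on both sides of 0.

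Other calcium and kinase signalling genes were read from lists matched by symbol, and whether they act with the genes above was not tested. The lists of calcium channels, pumps and exchangers and of other cascade kinases and phosphatases matched 0 genes by symbol. In the list of calmodulin-binding and calcium-binding partners, 13 symbols were measured and 10 tested, and 0 rose and 1 fell in each overexpressor, where 4.17% of all tested probe sets fell with OsTOP6A3 and 6.98% with OsTOP6B. Their median difference from wild type was -0.10 with OsTOP6A3 and -0.20 with OsTOP6B, beside -0.02 and -0.02 for all tested probe sets. These counts and medians include CP1, a cysteine proteinase here, and ATCRT1, the locus AT5G56340, which the gene table does not list as a calreticulin. The other 11 are IQD genes, whose proteins carry the IQ motifs that bind calmodulin. Of the 8 IQD genes tested, 1 fell in each overexpressor, and their medians were -0.08 with OsTOP6A3 and -0.17 with OsTOP6B.

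The gene that fell was IQD26, with normalized log2 values of 5.69 and 5.99 in wild type, 5.20 and 5.09 with OsTOP6A3, and 5.00 and 5.36 with OsTOP6B. All overexpressor arrays read below both wild-type arrays. IQD26 changed by -0.69 ± 0.17 with OsTOP6A3, or 1.62-fold lower (limma adjusted p = 0.0425), and by -0.66 ± 0.17 with OsTOP6B, or 1.58-fold lower (adjusted p = 0.0391). The OsTOP6A3 call needed both wild-type arrays (adjusted p of 0.0746 when replicate 1 was left out and 0.183 when replicate 2 was) and both OsTOP6A3 arrays (0.155 and 0.196). The OsTOP6B call needed both wild-type arrays (adjusted p of 0.0654 and 0.175 when replicates 1 and 2 were left out), both OsTOP6A3 arrays (0.0667 and 0.0683) and OsTOP6B replicate 1 (0.117). On the deposited scale both were lost as well, at -0.45 (adjusted p = 0.278) and -0.51 (adjusted p = 0.288), and also with no filter (adjusted p = 0.0910 and 0.0802), with pseudocounts of 1 (0.0701 and 0.0613) and 64 (0.0616 and 0.0572), and with the intensity trend and robust option (0.0699 and 0.0647).

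Some tissue markers passed in the same comparisons as IQD26, and others did not. Of 3 root markers, EXPA7, a root-hair expansin gene, rose by 1.23 with OsTOP6A3 and 1.73 with OsTOP6B (limma adjusted p = 0.00357 and 0.00077), EXPA18 rose by 0.81 with OsTOP6B (adjusted p = 0.0141), and PYK10 did not pass. The summed normalized intensity of the root list was 6318 to 6738 in wild type, 7136 to 7590 with OsTOP6A3 and 6910 to 8126 with OsTOP6B. Most of this sum was PYK10, at normalized log2 values of 12.59 and 12.69 in wild type. EXPA7 read 6.22 and 5.92 there, and EXPA18 6.84 and 6.98. PYK10 differed from wild type by 0.16 with OsTOP6A3 and 0.15 with OsTOP6B (limma adjusted p = 0.524 and 0.493). Of 7 green-shoot markers 1 rose (LHCB4.2) and 1 fell (PSAN) in each overexpressor. Of all tested probe sets 9.68% passed with OsTOP6A3 and 14.9% with OsTOP6B. Nothing is read from the counts of so few root and shoot markers. The sum of the green-shoot markers was 36616 to 36879 in wild type, 33709 to 34065 with OsTOP6A3 and 31129 to 34855 with OsTOP6B. The number of these markers at 0 on any array was 0. The call of EXPA18 needed wild-type replicate 1 (adjusted p of 0.0825 when it was left out). Those of LHCB4.2 and PSAN needed both wild-type arrays (0.0677 to 0.149), those with OsTOP6A3 also both OsTOP6A3 arrays (0.117 to 0.183), and that of LHCB4.2 with OsTOP6B also OsTOP6B replicate 2 (0.0508). PSAN lost both calls on the deposited scale, and LHCB4.2 and PSAN lost their OsTOP6A3 calls with no filter and with a pseudocount of 1. The part of these markers in the IQD26 values was not tested.

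Among receptor kinases and receptor-like cytoplasmic kinases with other names, 6 were measured and 5 tested once CCR2, a cinnamoyl-CoA reductase here, was set aside. In each comparison with wild type 0 of 5 passed, beside 9.68% of all tested probe sets with OsTOP6A3 and 14.9% with OsTOP6B. EFR, the receptor for bacterial elongation factor Tu, differed by 0.50 with OsTOP6A3 (limma adjusted p = 0.0645) and by 0.18 with OsTOP6B. FER and THE1, receptor kinases that monitor the cell wall, differed by 0.26 and 0.07 with OsTOP6A3 and by 0.26 and -0.16 with OsTOP6B. BIK1, a cytoplasmic kinase that acts next to immune receptors, differed by 0.01 and 0.20. BRL1, a receptor of the brassinosteroid type, read lower in both, by -0.33 with OsTOP6A3, where both arrays lay below wild type, and by -0.22 with OsTOP6B, and passed in neither (adjusted p = 0.199 and 0.342). A list of oxidative burst and early calcium or MAPK response genes held PRX52, STZ, WRKY22 and WRKY53. Of these 4 genes 0 passed, beside the same shares of all tested probe sets. Their medians were -0.24 with OsTOP6A3 and 0.03 with OsTOP6B, where those of all tested probe sets were -0.02 and -0.02. PRX52, a peroxidase gene that entered this list only by its PRX symbol, differed by -1.30 ± 0.36 with OsTOP6A3 (limma adjusted p = 0.0619). The gap between its wild-type replicates was 1.28. With OsTOP6B it differed by -0.69 ± 0.36 (adjusted p = 0.231).

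In the order of genes along the chromosomes, 18 protein-coding genes lie directly beside the 9 genes, and 8 of them were tested. With OsTOP6A3 0 of these 8 passed, and with OsTOP6B 3 did, beside 9.68% and 14.9% of all tested probe sets, and of these 3 AT2G15690 beside CML30 fell by 1.02 (limma adjusted p = 0.00912). With OsTOP6A3 AT2G15690 read -0.60, AT3G50780 -0.48 and AT5G44450 0.40, in the same directions. AT3G50780 beside CML41 fell by 0.55 (adjusted p = 0.0388) and AT5G44450 beside CML43 rose by 0.51 (adjusted p = 0.0447) with OsTOP6B. The calls of AT3G50780 and AT5G44450 were lost without any 1 of the 6 arrays, with adjusted p from 0.0527 to 0.157 and from 0.0715 to 0.199, and on the deposited scale, with no filter and with a pseudocount of 1. That of AT5G44450 was also lost with replicate numbers as a block (adjusted p = 0.0628), and that of AT2G15690 was lost on the deposited scale (adjusted p = 0.0572). With OsTOP6A3, AT2G15690 passed with a pseudocount of 64 (adjusted p = 0.0198), a filter at the 50th percentile (0.0403), the trend and robust option (0.0220) and when either OsTOP6B array was left out (0.0218 and 0.0239), and AT3G50780 passed with the pseudocount of 64 (0.0498) and that filter (0.0410). A difference between the overexpressors was not shown, with adjusted p of 0.677, 0.916 and 0.860 for the 3 genes.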

How the data were processed

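RNA of 6 arrays was labelled with biotin and read in 1 colour, per the labels. The authors deposited 1 linear intensity per probe set and array, and no source used here gives their probe summary or scaling. Of 22810 probe sets, 64 control probe sets were left out. A pseudocount of 16 was added and log2 taken. Quartiles differed between arrays by up to 0.54, above the limit of 0.1, so columns were quantile normalized. Probe sets with a mean at or above the 25th percentile (17059) entered 1 fit over all 6 arrays (limma 3.58.1, functions lmFit and eBayes, under R 4.3.3) that left 3 residual and 4.61 prior degrees of freedom. Tests are two-sided, Benjamini-Hochberg adjusted over all tested probe sets, and called under 0.05. The fit was also run on simulated data with independent noise and known changes. No support for the values given here is drawn from that run. The number of arrays limits the precision.

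Probe sets were named from the array annotation: 13513 had 1 gene, 503 several and 8730 none. TAIR10.1 served for names and neighbours only. The genes and lists were chosen with earlier results of these data known. All 9 genes are named with values from every array. IQD26, PRX52, BRL1 and the neighbours were named for their calls or sizes, after their values were seen. Alternatives were other scalings, pseudocounts and filters, a replicate block, the trend and robust option, every probe set of a gene counted, and leaving out each array. A list of other-tissue genes is not reported here. No nucleotide or protein sequences were used here. The number of columns left unassigned was 0.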

Additional observations from a re-analysis of the deposited data

How the results depend on the processing

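In each comparison 0 of the calmodulin-like and MAP kinase genes taken by the rule passed with all 6 arrays and under all 15 alternatives. Counting every probe set of a gene, 1 of these 15 alternatives, could not change the count, because each of the 9 genes had a single probe set. The filter at the 50th percentile left only 3 of the genes to test, beside 7 in the main fit. With replicate numbers as a block the count was again 0 in each. Over all tested probe sets after normalization, deviations of same-numbered arrays from their group means correlated by 0.00, -0.05 and 0.02 between groups. A batch that acts on few genes, or that normalization removed, would not show in these correlations. The block moved all calls from 1652 to 1452 with OsTOP6A3 and from 2540 to 2161 with OsTOP6B. Calls over the whole array moved by over 1.5 times with OsTOP6A3 for no filter (1002), and for leaving out a wild-type array (708 for replicate 1 and 870 for replicate 2) or an OsTOP6A3 array (560 and 689). With OsTOP6B they did so for the deposited scale (1460), no filter (1608), and leaving out wild-type replicate 1 (1054) or replicate 2 (1251). A pseudocount of 1 also moved the calls with OsTOP6A3 by just over 1.5 times, to 1100. Between the overexpressors the 0 calls became 5 on the deposited scale, 1 with a pseudocount of 64 and 1 with the trend and robust option.

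Of 282 alternative differences of single genes, 254 kept their sign and 28 changed it, all without a call. On the deposited scale, which moves the median of all tested probe sets to 0.34 with OsTOP6A3, 0.18 with OsTOP6B and 0.15 between the overexpressors, ATMPK13 turned to 0.20 with OsTOP6A3. With OsTOP6B, CML41 turned to 0.077, CML43 to 0.15, ATMPK13 to 0.13 and ATMPK8 to 0.16. Between the overexpressors CML42 turned to 0.035 and ATMPK13 to 0.072. Each of these 7 values stayed below the shift of all probe sets in its comparison.

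Without 1 array, with OsTOP6A3, CML23 ran from -0.20 to 0.52, CML42 from -0.13 to 0.31, CML43 from -0.089 to 0.16 and ATMPK13 from -0.36 to 0.22. With OsTOP6B, CML41 ran from -0.24 to 0.041, CML42 from -0.019 to 0.42, CML43 from -0.093 to 0.080, ATMPK13 from -0.34 to 0.24 and ATMPK8 from -0.14 to 0.012. Between the overexpressors CML23 ran from -0.59 to 0.13, CML30 from -0.13 to 0.18, CML42 from -0.25 to 0.036, CML43 from -0.084 to 0.17 and ATMPK13 from -0.23 to 0.19. The cause was not tested. A group with 1 array left was assumed to vary like the others. Signal limits CML37 and CML38, which were tested with no filter only.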
